A study of Mus musculus with 120 samples.

Results

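pi-Ankrd11 is a piRNA locus named for Ankrd11, the mouse gene for a nuclear protein with ankyrin repeats that works as a regulator of chromatin. The deposited tables count it in 2 rows, pi-Ankrd11.1 and pi-Ankrd11.2, out of 467 piRNA rows. Both were chosen by their counts in cauda sperm, being higher in heads than in tails while most piRNA rows were lower, so their values in those libraries are given as a description with no test. The comparisons that are tested below are between other libraries. The tests on testicular sperm parts and on whole sperm sequenced beside them come from fits that also hold the cauda heads and tails. The cauda heads and tails thus enter the shared spread of those tests and, except between washes, a shared wash term.

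PIWI-interacting RNAs (piRNAs) are germline small RNAs that guide PIWI proteins, with which they silence transposons and, in later male germ cells, act on messenger RNAs. In the mouse testis most of them arise at the pachytene stage of meiosis, from long precursors of intergenic clusters and of some genes. Their 3′ ends are methylated by Henmt1, and round spermatids lose most of the pathway as they become sperm.

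The 2 rows have the same recorded length, 159165 bases, which is 100% of the span of Ankrd11 in GENCODE release M21 on the same genome build (GRCm38, called mm10 in the submitters' processing notes). Ankrd11 lies there on the minus strand of chromosome 8, from 122883822 to 123042277. Of the 467 piRNA rows, 4 are longer. Among the 230 rows with a host gene found in GENCODE, 118 had a length within 95% to 105% of that gene's span. A row as long as the whole gene span could count small RNA from exons and introns alike, but the tables do not give the position or the sequence of any read. The messenger RNA row of Ankrd11 held at most 7 reads in any of the 74 libraries of the tables with gene rows. The pi-Ankrd11 rows held 889636 reads in the same libraries.

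The counts of the 2 rows were close to even in every library. pi-Ankrd11.1 took 36.8% to 54.9% of their summed reads over 114 libraries, with a median of 49.9%, and 47.5% to 53.1% in the 70 libraries with 1000 or more summed reads. The counts were equal in 0 libraries, and the exact 95% binomial interval held 50% in 98 of 114. Pairs of piRNA rows that share a locus name and a length, pi-Ankrd11 among them, were near even too. With reads summed over the libraries of sperm parts, the first row took 48.7% to 50.8% in all 44 such pairs with at least 1000 reads. These are values of summed reads, not ranges over single libraries. The rows may share reads, so they are not 2 independent measurements, and values are given for pi-Ankrd11.1 unless both are named.

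Small RNA under 40 nt from mice on control diet, collected at 8 to 12 weeks of age, was sequenced in 7 tables of read counts. Sperm parts came from the cauda epididymis, where sperm are stored (3 head libraries, 4 of tails and 6 of whole sperm, washed in hypotonic buffer or in 0.01% SDS and 0.005% Triton), and from the testis (3, 2 and 2, all with that detergent wash). A series along maturation held 1 library each of primary spermatocytes, early round spermatids and late round spermatids, then testicular sperm (4, whose titles name different preparations, 2X, NaCl, fusion untreated and somatic), caput sperm (1) and cauda sperm (7), beside 3 libraries of cauda epididymosomes, the vesicles that epididymal cells shed. Cauda sperm were also washed with detergent at 3 strengths or left unwashed (5 each), sperm and tissue were cloned after end-modifying enzymes or untreated (3 libraries a group in sperm, 4 in tissue), and testicular sperm were fused with caput epididymosomes or mock-fused (2 each). The titles of all tissue libraries also carry acid or base, so each tissue group of 4 is 2 numbered samples under each of these 2 words, which the titles leave unexplained. Each enzyme-treated library carries the title of its untreated one, with the enzyme added. The titles of the wash libraries name FVB, a mouse strain, and end in FVBTA for set 1 and in FVBCDIET for sets 2 to 5. The labels give no other strain, no genotype and no number of animals per library. Nothing in them says which libraries came from separate mice, so p-values measure the spread between libraries, which may be technical. Libraries held 156347 to 56011205 reads, and values are CPM, the count of a row per 1000000 reads of its library. Intervals cover counting error only, since reads are not independent molecules after PCR.

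In the heads of cauda sperm pi-Ankrd11.1 had 1429 and 2662 CPM in the hypotonic libraries and 345 CPM in the detergent library. Tails of cauda sperm had 114, 41.1 and 140 CPM after the hypotonic wash and 101 CPM after detergent. All 3 head libraries lay above all 4 tail libraries, and the detergent head library was the lowest of the heads. pi-Ankrd11.2 had 1492 ± 1126 CPM in heads and 102 ± 43.5 CPM in tails (SD, n = 3 and 4). The fitted log2 difference of heads over tails was 3.89 ± 0.62 for pi-Ankrd11.1 and 3.87 ± 0.64 for pi-Ankrd11.2 (SE). Of the other 458 piRNA rows in the fit, 290 were called lower and 3 higher, or 63.3% and 0.655%, with a median log2 difference of -1.80. Over all 9709 rows, 12.4% were called higher in heads. No test is drawn from these values, since they chose the rows. In the same libraries markers of the epididymal epithelium summed to 192 to 687 CPM in heads and 896 to 1698 CPM in tails, and spermatid messenger RNA to 50.8 to 130 CPM in heads and 223 to 668 CPM in tails. Their part in the values was not tested.

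**Figure D1:**
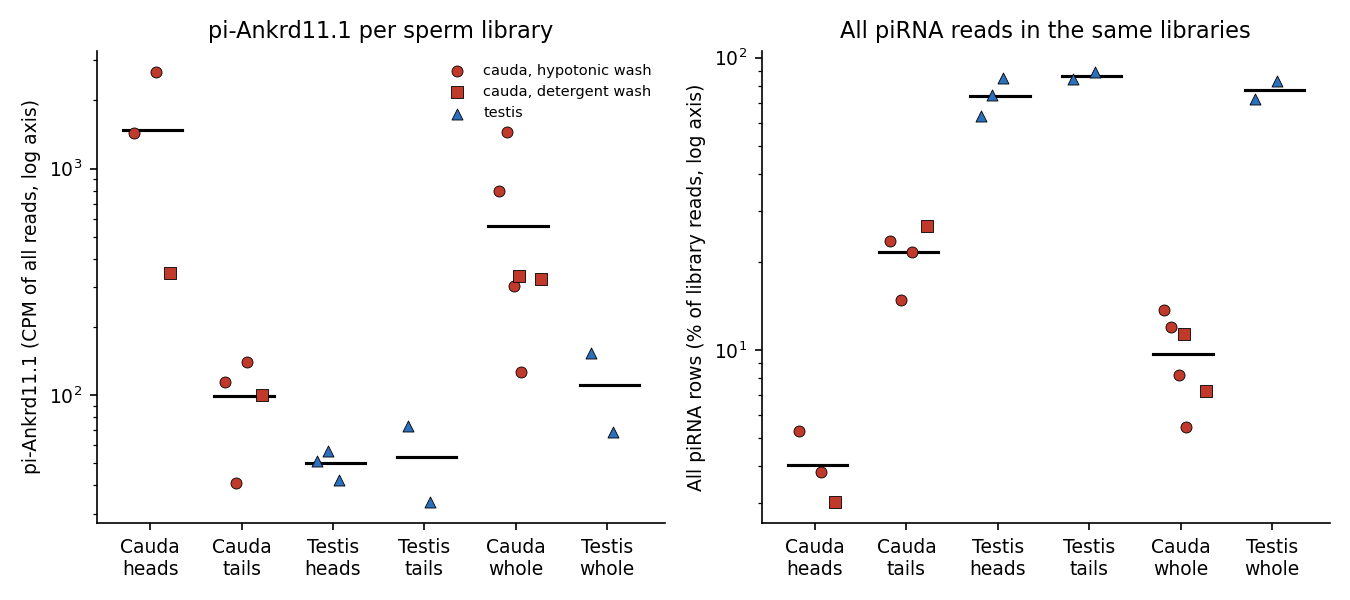
Left, CPM of pi-Ankrd11.1 in each sperm library (log axis); right, all piRNA rows as a percent of the reads of the same library (log axis). Points are libraries, bars are group means, and red and blue mark cauda and testis. Heads of cauda sperm reach 2662 CPM on the left, the highest library, and hold the lowest piRNA percentages on the right, 3.03% to 5.27%.

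The 3 other piRNA rows called higher in cauda heads were 1-qE2.3-2.1, with a log2 difference of 2.50, and pi-D730040F13Rik.1 and pi-D730040F13Rik.2, with 1.39 and 1.38. The next row, pi-Shank3.2, stood at 0.87 and was not called. 1-qE2.3-2.1 averaged 14.3 ± 7.63 CPM in heads and 2.71 ± 0.51 CPM in tails, while pi-D730040F13Rik.1 averaged 209 ± 10.3 CPM in heads and 95.7 ± 39.5 CPM in tails (SD, n = 3 and 4). By level pi-Ankrd11.1 ranked 3 of 467 piRNA rows in cauda heads and 189 in cauda tails. The 4 piRNA rows most abundant over both parts together lay below pi-Ankrd11.1 in heads and far above it in tails, as 9-qC-31469.1 did with 1353 ± 437 CPM in heads and 8797 ± 2041 CPM in tails.

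As a share of piRNA reads, the 2 pi-Ankrd11 rows together made up 5.63%, 13.8% and 2.28% in the cauda heads, the last after detergent, against 0.0548% to 0.129% in the cauda tails. All piRNA rows together took 3.03% to 5.27% of the reads of cauda heads and 14.9% to 26.6% of those of cauda tails. Compared per length, pi-Ankrd11.1 stood at 9.29 CPM per kilobase in cauda heads, where the median piRNA row stood at 0.678, and ranked 59 of 467 rows. In cauda tails it stood at 0.623 CPM per kilobase, where the median row stood at 2.11, and ranked 305.

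Testicular sperm held little of either row, in heads and tails alike. pi-Ankrd11.1 had 51.0, 56.8 and 42.3 CPM in testicular heads and 73.3 and 33.9 CPM in testicular tails. The tail libraries lay on both sides of the heads, and the log2 difference was 0.08 ± 0.69 (SE; adjusted p = 1 by edgeR). In that comparison edgeR called 0 of 9709 rows, or 0.0%. Per length, pi-Ankrd11.1 ranked 416 of 467 piRNA rows in testicular heads. Side by side, the cauda heads stood above the testicular heads by a log2 difference of 3.70 ± 0.75, while cauda tails and testicular tails differed by -0.11 ± 0.71 (SE). The tail difference turned positive, 0.22, with libraries scaled by their totals alone. The heads and tails of cauda sperm in these values are the libraries that chose the rows.

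Whole cauda sperm had 795, 1455, 304 and 126 CPM of pi-Ankrd11.1 after the hypotonic wash and 335 and 324 CPM after detergent, against 153 and 68.7 CPM in whole testicular sperm. The lowest cauda library lay between the testicular ones. The log2 difference was 1.70 ± 0.74 for pi-Ankrd11.1 and 1.78 ± 0.75 for pi-Ankrd11.2 (SE), with adjusted p of 0.0614 and 0.056 by edgeR, so neither passed at 0.05. Of all rows 45.7% were called, 18.3% higher and 27.4% lower. Of the other 458 piRNA rows, 3 were called higher and 311 lower, or 0.655% and 67.9%, with a median of -2.36. The 2 pi-Ankrd11 rows held the first 2 places among the 460 by log2 difference. With DESeq2 in place of edgeR pi-Ankrd11.1 passed, at 2.05 and an adjusted p of 0.0158. The share of all rows that DESeq2 called there is not given here. The share of piRNA reads was 1.05% ± 0.75 in cauda and 0.0287% ± 0.018 in testicular whole sperm (SD, n = 6 and 2), with no overlap. Epithelial markers summed to 689 to 1980 CPM in cauda whole sperm and 71.7 to 77.9 CPM in testicular whole sperm, and blood markers to 187 to 1142 CPM in cauda and 92.8 to 105 CPM in testicular whole sperm. Their part in the difference was not tested. Between washes of whole cauda sperm, hypotonic libraries averaged 670 ± 595 CPM and detergent libraries 330 ± 7.33 CPM (SD, n = 4 and 2), and that difference did not pass (log2 1.41 ± 0.68, SE; adjusted p = 0.659 by edgeR), where 0.0267% of all rows were called, all of them lower.

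**Figure D2:**
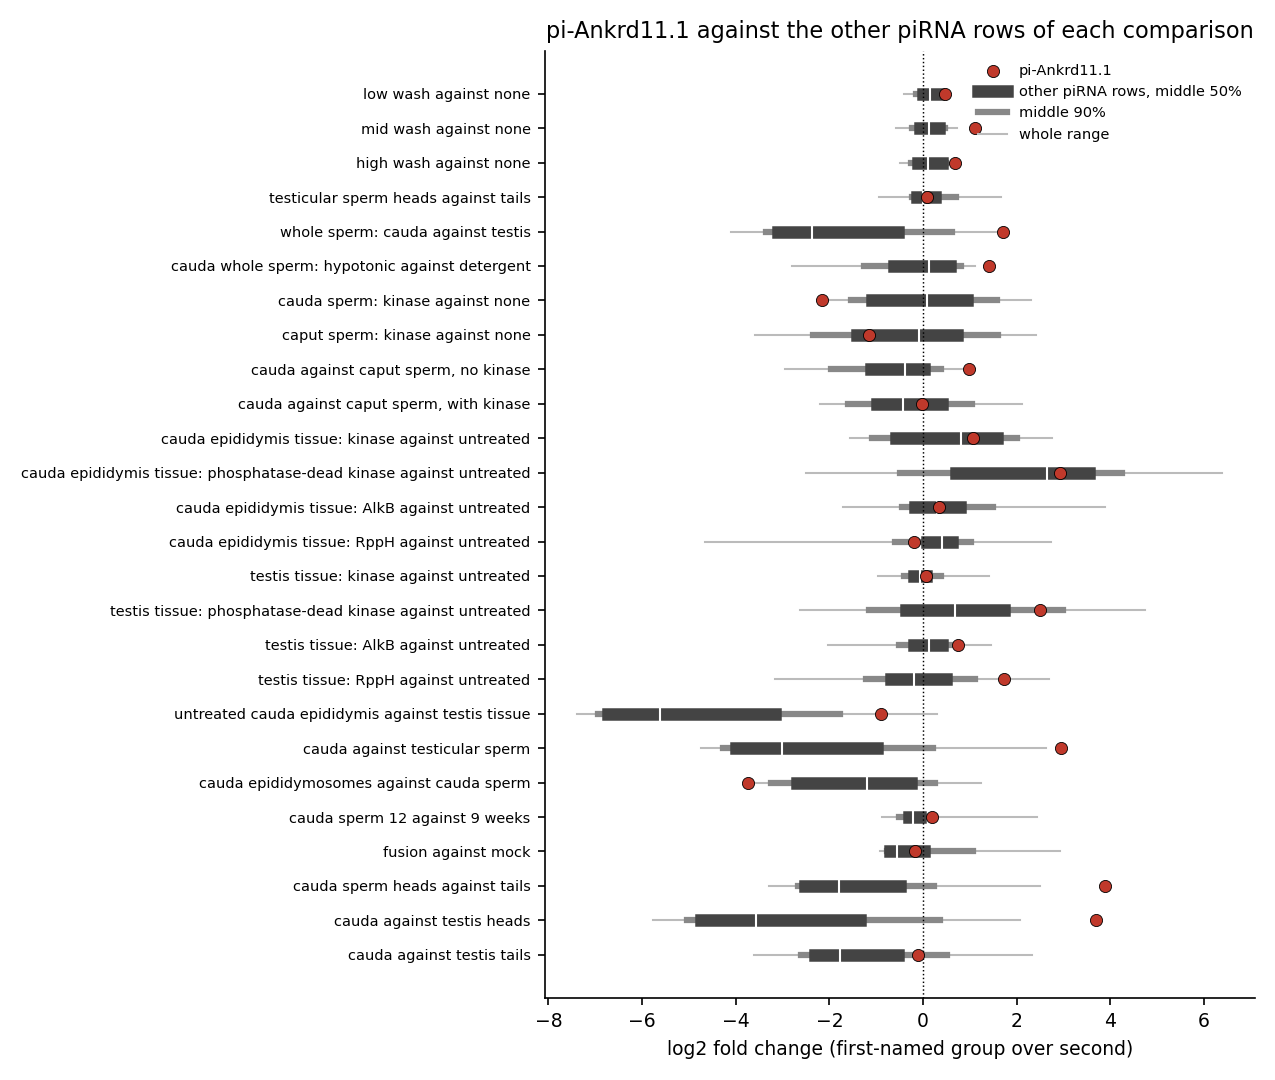
log2 fold change of pi-Ankrd11.1 (red) in each comparison, the first-named group over the second, beside the spread of the other piRNA rows (thick bar, middle 50%; medium bar, middle 90%; thin line, whole range; white tick, median). pi-Ankrd11.1 lies at 2.93 for cauda against testicular sperm, where the median piRNA row is at -3.01.

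The series along maturation, made of other libraries, gave the largest tested rise in sperm. pi-Ankrd11.1 had 1697, 651 and 1068 CPM in cauda sperm of 12 weeks, 918, 1508 and 446 CPM at 9 weeks and 345 CPM in the library with no age. Testicular sperm had 351, 90.6, 221 and 126 CPM. The lowest cauda library and the highest testicular one overlapped narrowly, and all other cauda libraries lay above. Both rows rose, by log2 2.93 ± 0.42 and 2.99 ± 0.42 (SE), with adjusted p of 2.54e-07 and 1.64e-07 by edgeR. Of all 7672 rows tested, 42.0% were called higher, but of the other 458 piRNA rows only 6, or 1.31%, while 78.4% were called lower. The median of those rows was -3.01, and pi-Ankrd11.2 and pi-Ankrd11.1 held the first and second place.

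The rows' share of piRNA reads was 4.52% to 9.29% in the 7 cauda libraries and 0.0253% to 0.222% in the 4 testicular ones, with no overlap. All piRNA rows together took 1.53% to 4.09% of reads in cauda sperm and 31.2% to 77.9% in testicular sperm. Blood markers, a list of 6 with 5 in the table, among them the red-cell microRNA Mir451a, summed to 23.5 to 77.8 CPM in cauda sperm and to 5133 to 102949 CPM in testicular sperm. Their part in the result was not tested. Within the libraries of a single title suffix, an alternative added after the data were seen, the log2 difference was 3.8 ± 0.44 (SE; adjusted p = 7.34e-07 by edgeR). That suffix holds the cauda sperm of known age and only the NaCl and somatic preparations of testicular sperm. The share of all rows called in that fit is not given here.

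Earlier germ cells had the lowest levels of the series. pi-Ankrd11.1 stood at 28.5 CPM in primary spermatocytes, 20.2 CPM in early round spermatids, 19.1 CPM in late round spermatids and 284 CPM in caput sperm, with 1 library each. The share of piRNA reads was 0.00582% in spermatocytes, 0.00429% and 0.00417% in the early and late spermatids, and 3.59% in caput sperm. The exact 95% intervals were 0.0055% to 0.00615% in spermatocytes and 3.51% to 3.67% in caput sperm. Germ-cell libraries thus held the rows at a low but countable level, 1211 reads in spermatocytes over both rows. Per length, pi-Ankrd11.1 ranked 427 of 467 piRNA rows in spermatocytes and 58 in cauda sperm.

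**Figure D3:**
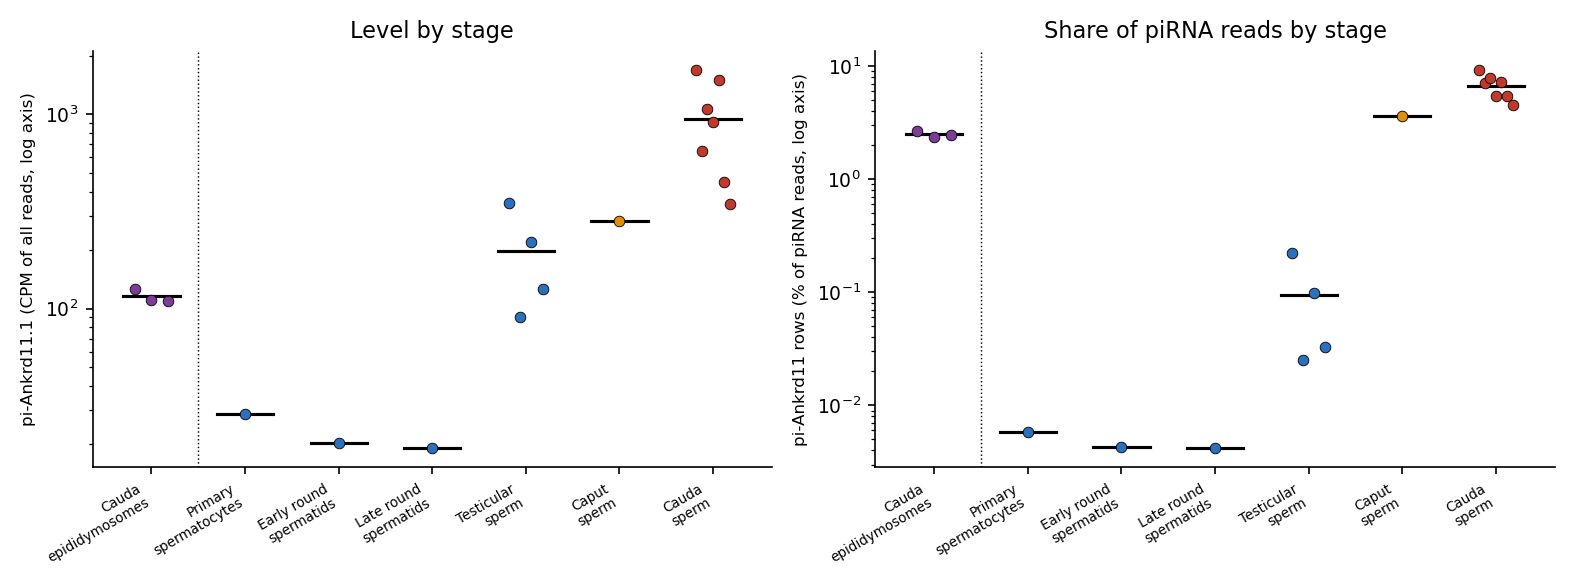
Left, CPM of pi-Ankrd11.1 (log axis); right, the 2 pi-Ankrd11 rows as a percent of piRNA reads (log axis), for cauda epididymosomes and for stages of germ cells and sperm in order of maturation. Points are libraries and bars are means. The share runs from 0.00417% in late round spermatids to 9.29% in a cauda sperm library.

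Cauda epididymosomes had 127, 111 and 109 CPM of pi-Ankrd11.1, against the 345 to 1697 CPM of cauda sperm, with no overlap. The rows fell, by log2 -3.73 ± 0.50 and -3.71 ± 0.50 (SE), with adjusted p of 1.73e-07 and 1.69e-07 by edgeR. Of all rows 25.7% were called lower, and of the other piRNA rows 50.7%, with a median of -1.21. pi-Ankrd11.1 held place 459 of 460. The share of piRNA reads was 2.38% to 2.69% in epididymosomes, above all testicular sperm libraries and below all those of cauda sperm. Epithelial markers of the epididymis summed to 17244 to 24951 CPM in epididymosomes and to 85.8 to 996 CPM in cauda sperm, and their part was not tested. The epididymosomes carry another title suffix than the cauda sperm, and testicular sperm carry all 3 suffixes. With the suffix as a term of the fit, an alternative added after the data were seen, the log2 difference was -4.31 ± 0.74 (SE; adjusted p = 3.53e-05 by edgeR), where 11.9% of 10473 rows were called lower. That fit joins the suffix of the epididymosomes to the others through 1 testicular sperm library.

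Between the ages, pi-Ankrd11.1 averaged 1139 ± 527 CPM at 12 weeks and 957 ± 532 CPM at 9 weeks (SD, n = 3 each). The log2 difference was 0.19 ± 0.34 (SE; adjusted p = 1 by edgeR), and edgeR called 0.0% of 3747 rows. The rows' share of piRNA reads was 7.11% to 9.29% at 12 weeks and 5.42% to 7.28% at 9 weeks, which overlap.

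After each detergent wash both rows were still counted in cauda sperm. pi-Ankrd11.1 had 522, 824, 940, 940 and 1169 CPM in the unwashed libraries of sets 1 to 5. After the low wash (0.01% SDS, 0.005% Triton) the sets had 583, 1147, 1194, 1398 and 1540 CPM. After the mid wash (0.1% SDS, 0.005% Triton) they had 855, 1763, 3237, 2615 and 4484 CPM. After the high wash (0.1% SDS, 0.5% Triton) they had 715, 1376, 2140, 2159 and 2711 CPM. All 5 sets lay above their own unwashed library after each of the 3 washes. The mid wash stood at 1.64 to 3.84 times the unwashed level. Set 1, whose titles end in another suffix, had the lowest value in each group.

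Without regard to sets, none of the 3 washes passed. The log2 difference was 0.48 ± 0.46 for low (adjusted p = 0.896), 1.1 ± 0.47 for mid (0.21) and 0.68 ± 0.46 for high (SE; 0.612 by edgeR), where 0.0%, 0.697% and 0.119% of 12618 rows were called higher, and 0.0713%, 2.79% and 1.58% in either direction, 1.46% lower after the high wash. With the set as a replicate block the rise passed after the mid wash, at 0.98 ± 0.16 (adjusted p = 3.74e-05), and after the high wash, at 0.58 ± 0.16 (adjusted p = 0.0181), but not after the low wash, at 0.43 ± 0.16 (SE; adjusted p = 0.169 by edgeR). In that fit 13.2%, 8.36% and 2.21% of 13321 rows were called after the mid, high and low wash, with 6.94%, 3.76% and 0.616% called higher. Among 457 piRNA rows pi-Ankrd11.1 held place 3, 2 and 3 in the fit without the set. There the other 455 piRNA rows had medians of 0.15, 0.14 and 0.11 after the low, mid and high wash, and 0 were called.

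The share of piRNA reads was 2.3% ± 0.388 unwashed, 2.78% ± 0.75 after the low, 4.18% ± 2.01 after the mid and 3.08% ± 1.19 after the high wash (SD, n = 5 each). It was above the unwashed library of the set in 5, 5 and 4 of 5 sets. All piRNA rows together averaged 7.79% of reads unwashed, and 8.71%, 12.8% and 12.1% after the low, mid and high wash. Transfer RNA rows averaged 45.5% unwashed, and 55.8%, 55.6% and 56.7% after those washes. In the same libraries epithelial markers summed to 8338 to 11281 CPM unwashed, 2850 to 4336 CPM after the low, 3732 to 6936 CPM after the mid and 3359 to 6617 CPM after the high wash. Blood markers summed to 76.8 to 339 CPM over the washed libraries, against 1538 to 2852 CPM unwashed. Spermatid messenger RNA summed to 139 to 197 CPM unwashed and 154 to 211 CPM after the low wash. It summed to 230 to 383 CPM after the mid and 224 to 278 CPM after the high wash. The part of these markers in the rise was not tested.

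**Figure D4:**
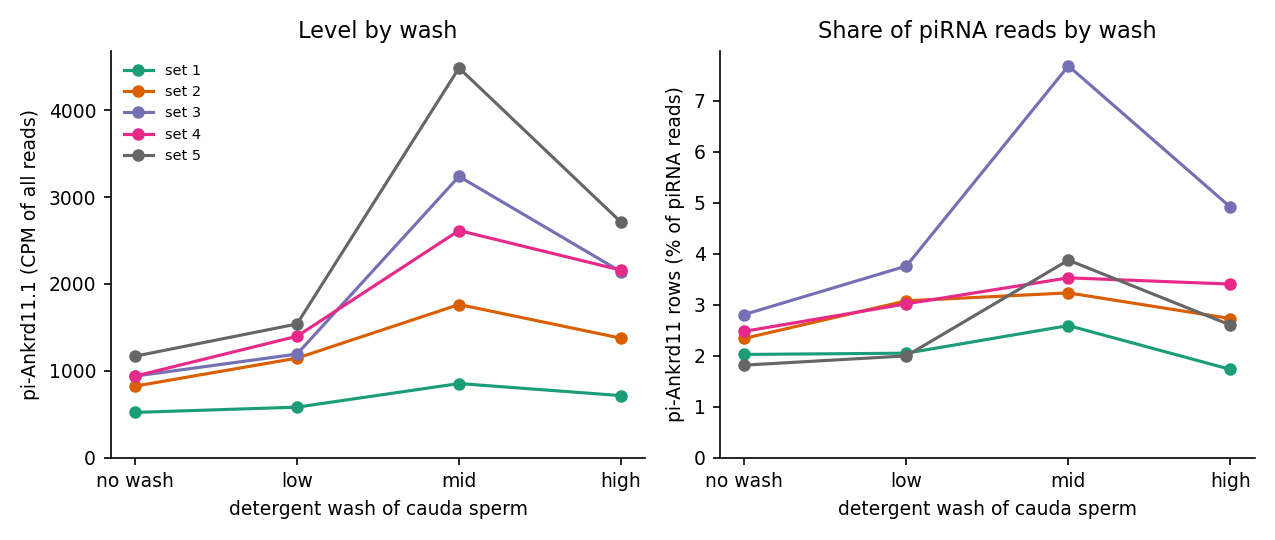
CPM of pi-Ankrd11.1 (left) and the 2 pi-Ankrd11 rows as a percent of piRNA reads (right) in cauda sperm with no wash and after the low, mid and high detergent wash. Each line is 1 set of 4 libraries. On the left all 5 lines stand above their unwashed value after each wash, and the highest value is 4484 CPM after the mid wash.

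Many methods of cloning small RNA need a 5′ phosphate and a free 3′ end, so enzymes that change RNA ends change which molecules are counted. Polynucleotide kinase adds 5′ phosphates and removes 3′ phosphates. In cauda sperm pi-Ankrd11.1 had 101, 132 and 65.0 CPM with kinase, against 449, 477 and 1052 CPM without, with no overlap. Both rows fell, by log2 -2.15 ± 0.36 and -2.0 ± 0.38 (SE; adjusted p of 2.17e-05 and 8.66e-05 by edgeR), where 61.3% of all 1492 rows were called, 32.6% higher and 28.8% lower, and 31.1% of the other 402 piRNA rows were called lower. The median piRNA row stood at 0.08, and pi-Ankrd11.1 at place 403 of 404. The share of piRNA reads was 1.77% ± 0.482 with kinase and 4.15% ± 1.24 without (SD, n = 3 each).

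In caput sperm pi-Ankrd11.1 had 241, 228 and 247 CPM with kinase and 858, 505 and 274 CPM without. It fell by log2 -1.15 ± 0.36 (adjusted p = 0.0129), while pi-Ankrd11.2, at -0.93 ± 0.38 (SE), had an adjusted p of 0.0518 by edgeR. With each treated library blocked with its untreated namesake, pi-Ankrd11.2 passed at -0.84 ± 0.31 (SE; adjusted p = 0.0212 by edgeR). The share of all rows called with that block is not given here. In the fit without that block 39.9% of all rows were called, 12.9% higher and 27% lower. The call rests on the scaling and on single libraries, as the adjusted p was 0.12 with the size factors of DESeq2 in edgeR. It also no longer passed without replicate 1 of the caput sperm without kinase (-0.67) or replicate 2 of those with it (-0.98). The kinase effect differed between cauda and caput sperm by log2 -1.0 ± 0.50 (SE), which did not pass (adjusted p = 0.24 by edgeR).

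Between locations and without kinase, pi-Ankrd11.1 averaged 659 ± 341 CPM in cauda sperm and 545 ± 294 CPM in caput sperm (SD, n = 3 each), with overlapping libraries. The fitted log2 difference was 0.98 ± 0.35 (SE; adjusted p = 0.0214 by edgeR), where 51.2% of all rows were called, 17.7% higher and 33.5% lower, but 0 of the other 402 piRNA rows higher and 27.6% lower. With libraries scaled by their totals alone it was 0.27 and did not pass, and the median of all rows then stood at -1.15 in place of -0.44. It also did not pass without cauda sperm replicate 3 or without caput sperm replicate 3, with values of 0.73 to 1.67 over all libraries left out in turn. In the same libraries epithelial markers summed to 4307 to 6348 CPM in cauda and 8460 to 10630 CPM in caput sperm, and blood markers to 1616 to 2203 CPM in cauda and 336 to 646 CPM in caput sperm. A list for testis somatic cells held Insl3, Cyp17a1, Star, Sox9, Amh and Clu, with 4 of the 6 at 0 in each group. Its sum was 2.56 to 13.8 CPM in cauda and 141 to 260 CPM in caput sperm. With so few rows counted, it does not show which cells the reads came from. The part of these markers in the difference was not tested. With kinase the values were 99.5 ± 33.6 CPM in cauda sperm and 239 ± 9.44 CPM in caput sperm (SD, n = 3 each), and the log2 difference was -0.02 ± 0.36 (SE; adjusted p = 0.975 by edgeR). There 37.8% of all rows were called, 20.3% higher, and of the other piRNA rows 5.72% higher and 20.4% lower. The scaling changes the call, as library totals alone gave -1.26 with an adjusted p of 0.0113.

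In tissue without enzyme treatment the rows were scarce. Untreated cauda epididymis had 22.2 to 30.9 CPM of pi-Ankrd11.1 and untreated testis 36.8 to 48.2 CPM over 4 libraries each, with no overlap. pi-Ankrd11.1 was lower in cauda epididymis by log2 -0.90 ± 0.17 (SE; adjusted p = 7.36e-05 by edgeR), where 95.9% of all 1210 rows were called, 50.2% lower and 45.6% higher. Of the other 456 piRNA rows 99.6% were called lower, with a median of -5.62. With the size factors of DESeq2 in edgeR the value was -0.34 and did not pass. As a share of piRNA reads the rows stood at 0.489% ± 0.115 in cauda epididymis and 0.009% ± 0.00122 in testis (SD, n = 4 each), with no overlap.

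The form of kinase labelled PNK 3 minus, which lacks the 3′ phosphatase, gave the highest values of cauda epididymis tissue. There it gave 512, 857, 653 and 210 CPM, and the kinase gave 71.2, 48.1, 77.3 and 53.9 CPM, against 22.2, 29.2, 30.9 and 26.7 CPM untreated. Neither treatment overlapped the untreated libraries. The rise was log2 2.93 ± 0.33 with the phosphatase-dead form and 1.07 ± 0.31 with kinase (SE; adjusted p of 3.94e-08 and 0.00544 by edgeR). Other piRNA rows moved likewise, since 74.3% and 51.3% of 448 were called higher, with medians of 2.64 and 0.82, beside 35.4% and 43.4% of all 1097 rows. In that list pi-Ankrd11.1 held the middle places 200 and 208 of 450. The kinase call was lost with the size factors of DESeq2 (0.91, adjusted p = 0.0521) and with library totals alone (1.2, adjusted p = 0.05), and with no filter on low counts it was 0.79 and did not pass. With each treated library blocked with the untreated one whose title it carries, the kinase rise was 0.58 ± 0.38 and did not pass (SE; adjusted p = 0.166 by edgeR). The rise with the phosphatase-dead form then passed at 2.16 ± 0.39 (SE; adjusted p = 1.26e-06 by edgeR). The share of all rows called for that form with the block is not given here. Without the block it was 85.1% in either direction.

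In testis tissue the phosphatase-dead form gave 76.6, 79.6, 246 and 79.9 CPM, against 41.0, 36.8, 48.2 and 39.5 CPM untreated. The rise was log2 2.49 ± 0.47 (SE; adjusted p = 0.000205 by edgeR), where 23.3% of all 1103 rows and 38.8% of the other 456 piRNA rows were called higher. With library totals alone it was 1.43, with an adjusted p of 0.071. The library at 246 CPM is base replicate 1, and without it the rise was 1.80 ± 0.38 (SE; adjusted p = 0.00122 by edgeR). With each library left out in turn, 420 to 458 rows were called in this comparison. Kinase left pi-Ankrd11.1 at 39.5 ± 8.13 CPM, against 41.4 ± 4.88 CPM untreated (SD, n = 4 each; log2 0.06 ± 0.44, SE, adjusted p = 1 by edgeR), and its sign turns under other scalings. The effects of both forms did not pass as different between the tissues, at log2 -1.09 ± 0.70 and 0.60 ± 0.70 (SE; adjusted p of 0.201 and 0.531 by edgeR).

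AlkB removes methyl groups from RNA bases. pi-Ankrd11.1 had 14.9 ± 5.74 CPM with AlkB and 27.2 ± 3.74 CPM untreated in cauda epididymis, and 62.0 ± 5.51 CPM with AlkB and 41.4 ± 4.88 CPM untreated in testis (SD, n = 4 each). Neither difference passed, at log2 0.33 ± 0.32, which turns to -0.89 with library totals alone, and 0.75 ± 0.44 (SE; adjusted p of 0.461 and 0.387 by edgeR), where 33.4% of all rows were called in cauda epididymis and 123 of 1103 in testis.

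RppH removes the caps and triphosphates at 5′ ends. In testis the RppH libraries had 75.7, 71.9, 953 and 87.3 CPM, against 36.8 to 48.2 CPM untreated. The library at 953 CPM, labelled base replicate 1, stands apart. Only 13.1% of its reads were piRNA, against 43.8% in the phosphatase-dead base replicate 1 and 62.1% or more in the other 18 testis tissue libraries. The epithelial microRNAs Mir200a, Mir200b and Mir141 summed to 7133 CPM in it, against 14.9 to 219 CPM in the other 19 testis tissue libraries and 310 to 22398 CPM in cauda epididymis tissue. The mir-34 microRNAs, counted here as germ-cell markers, summed to 5824 CPM in it. They summed to 139 to 10195 CPM in the other testis tissue libraries and 41.7 to 1442 CPM in cauda epididymis tissue. In the other testis RppH libraries they summed to 861, 854 and 818 CPM. The source of the reads in base replicate 1 was not tested. That library held 484914 reads. With it, pi-Ankrd11.1 rose by log2 1.73 ± 0.45 (SE; adjusted p = 0.0125 by edgeR), which without base untreated replicate 2 was 1.66 and did not pass, and where 18.7% of all rows were called, 7.52% lower and 123 of 1103 rows higher, with 3.29% of the other piRNA rows higher. Without it the rise was 1.31 ± 0.36 (SE; adjusted p = 0.00729 by edgeR). In that fit 485 rows were called in either direction, against 206 with the library, so passing was less particular to the row. Without it all 3 RppH libraries still lay above the 4 untreated ones. In cauda epididymis RppH gave 6.06 to 27.2 CPM, against 22.2 to 30.9 CPM untreated, and the log2 difference of -0.19 ± 0.33 (SE; adjusted p = 0.691 by edgeR) turns to 0.39 with the size factors of DESeq2.

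**Figure D5:**
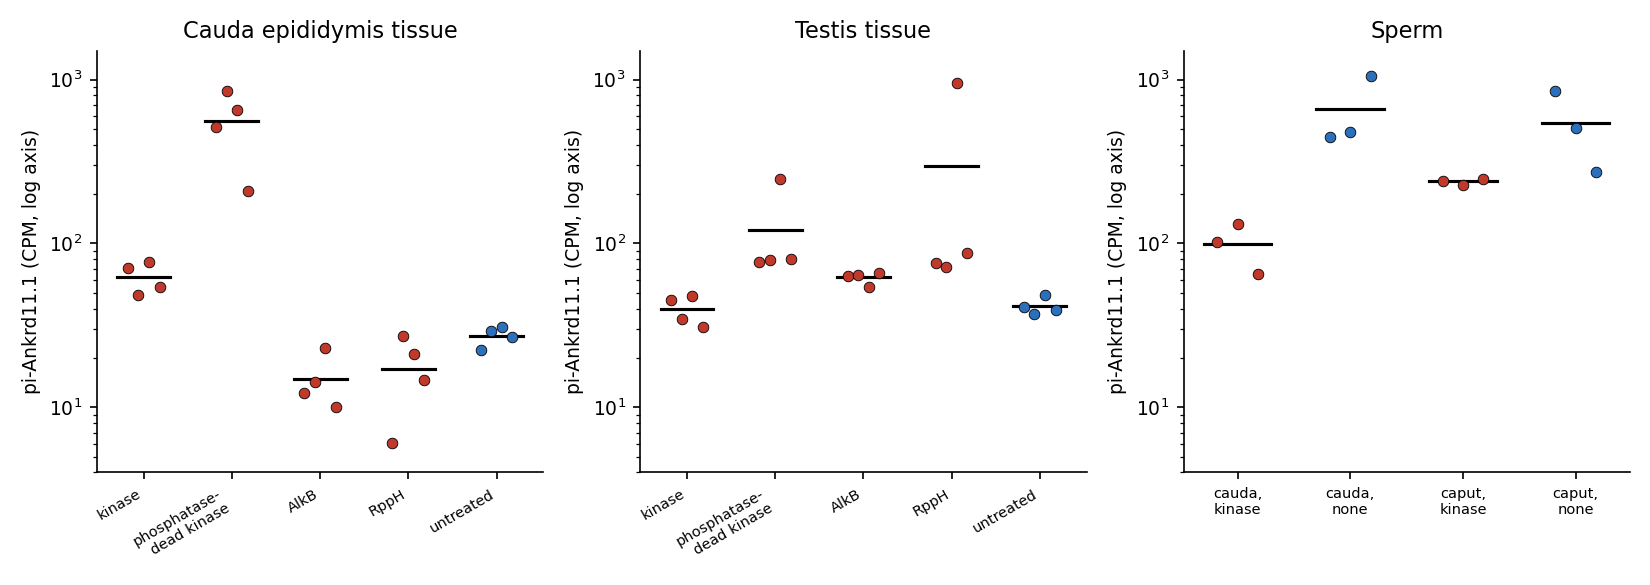
CPM of pi-Ankrd11.1 (log axes) in cauda epididymis tissue, testis tissue and sperm, with enzyme-treated libraries in red and untreated ones in blue. Points are libraries and bars are means. In both tissues the phosphatase-dead kinase lies above untreated, up to 857 CPM in cauda epididymis, while kinase lies below untreated in cauda sperm.

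After fusion of testicular sperm with caput epididymosomes neither row passed the test. pi-Ankrd11.1 had 217 and 107 CPM after fusion and 214 and 136 CPM after mock fusion. The log2 difference was -0.16 ± 0.48 (SE; adjusted p = 0.884 by edgeR), where 6.91% of all rows were called higher. Without fusion replicate 2 it was 0.18.

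Over the 23 tested comparisons the share of piRNA reads did not overlap between groups in 11, of which 9 were higher and 2 lower in the first-named group. The exact two-sided permutation test, adjusted over the 23, passed in 0 of them. The smallest adjusted p was 0.073, which several shared, and 9 of the 23 are too small to reach 0.05 even before adjustment. The 2 rows were counted together in this share.

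By pattern, the 5 rows most like pi-Ankrd11.1, after pi-Ankrd11.2, were 4 rows of transfer RNA fragments and 1 gene row. The transfer RNA rows named below count such fragments, not whole transfer RNAs. Likeness was the lowest Pearson r of log2(CPM + 1) over 4 tables of 20, 20, 12 and 20 libraries, among 588 rows that averaged at least 20 CPM in each. Libraries of a table share groups and preparation, so these values are descriptive. The libraries include the cauda heads and tails that chose the rows as standing apart from most piRNA rows, so a low r with other piRNA rows is in part set by that choice. pi-Ankrd11.2 followed pi-Ankrd11.1 at 0.99 or more. Next came the selenocysteine transfer RNA chr7.trna88-SeC(e)TCA with a lowest r of 0.78, and 2900060B14Rik with 0.74. The transfer RNAs chr10.trna866-AspGTC, chr11.trna2021-LeuAAG and chr13.trna996-SerTGA followed with 0.68, 0.65 and 0.65. Without the cauda heads and tails, an alternative added after the data were seen, the first 5 again held 0 piRNA rows, and 1 of the 5 above stayed among them, the selenocysteine transfer RNA at 0.78. The first was then chr1.trna708-GlyTCC at 0.82.

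2900060B14Rik, an antisense gene in GENCODE and a long non-coding RNA in RefSeq, lies at chr1:118458652-118459267 on the minus strand and overlaps Gm22710, a small nuclear RNA of 125 bases on the same strand. In cauda sperm heads it had 97.8 ± 88.6 CPM and in tails 5.16 ± 3.2 CPM (SD, n = 3 and 4). In cauda against testicular sperm of the series along maturation it stood at log2 3.67 ± 0.47 (SE). The selenocysteine transfer RNA stood there at 3.24 ± 0.42 (SE). With kinase in cauda sperm 2900060B14Rik stood at -2.1 ± 0.72 and the transfer RNA at -0.44 ± 0.38 (SE). Both rows were picked for their likeness to pi-Ankrd11.1 over these same libraries, so no test is drawn from these values.

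Among 234 piRNA rows ranked in the same way the median lowest r was -0.74, and the most like were pi-March08.2 at 0.39, pi-D730040F13Rik.1 at 0.20, pi-D730040F13Rik.2 at 0.19, pi-Klf13.1 at 0.13 and pi-Rab11fip4.2 at 0.07. Without the cauda heads and tails the median was again -0.74, and 4 of these 5 rows stayed in the first 5. Without the whole table of sperm parts it was -0.53, and 3 stayed. pi-Rab11fip4.2 stood at log2 1.39 ± 1.07 (SE) in cauda against testicular sperm. That value is a description, since the same libraries ranked the row.

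1-qE2.3-2.1, the other piRNA row with a large rise in cauda heads, has a recorded length of 121 bases, the shortest of the 467. It rose in cauda against testicular sperm by log2 2.61 ± 0.40, as the pi-Ankrd11 rows did. With kinase in cauda sperm it rose by 2.29 ± 0.47, where pi-Ankrd11.1 fell by 2.15 on the log2 scale (SE; adjusted p of 5.89e-07 and 0.000199 by edgeR).

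Of 24 genes of the piRNA pathway, all present as messenger RNA rows, 14 were tested in cauda against testicular sperm along maturation. None was called higher and 12 were called lower, with a median log2 difference of -2.95, beside 29.5% of all 7672 rows called lower. In small RNA libraries such rows count fragments of messenger RNA. The 4 most abundant were Piwil2, a PIWI protein, Hsp90aa1, a chaperone used in loading piRNAs, Tdrd1, a scaffold protein of the pathway, and Henmt1, the piRNA methyltransferase. Piwil2 averaged 1.63 CPM in cauda sperm and 28.9 CPM in testicular sperm (log2 -3.65 ± 0.42, SE; adjusted p = 2.04e-09 by edgeR). Henmt1 fell by log2 -3.90 ± 0.48 in the same comparison (SE; adjusted p = 9.15e-09 by edgeR). Tdrd1 fell by -3.58 ± 0.47 and Hsp90aa1 by less, -0.96 ± 0.35 (SE; adjusted p of 4.22e-08 and 0.0156 by edgeR). In whole sperm of the cauda against the testis 18 of 21 tested were called lower, beside 27.4% of all rows, and in testicular heads against tails 0 of 21 were called. Along maturation most of the tested fragments and most piRNA rows were called lower, while both pi-Ankrd11 rows were called higher. In whole sperm and in testicular sperm parts the pi-Ankrd11 rows were not called.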

How the data were processed

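Small RNA libraries of mouse sperm, sperm parts, epididymosomes and tissues were analysed from deposited read counts. Per the file headers the deposited rows for rRNA, tRNA, microRNA, piRNA and repeats are counts, and the authors' deposited gene rows are expected counts, which were rounded to whole numbers. Per the submitters' processing notes the build was mm10. The aligner, counting tool and use of strand are not given in the sources used here. Library totals left out the 3 rRNA rows contained in 45S, and 27 gene rows named as dates were dropped.

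Groups came from the labels. For 1 wash library the title says mid, while its wash label and its column say high, which was used. edgeR 4.0.16 in R 4.3.3 fitted each table whole (TMM, edgeR's filter on low counts, robust quasi-likelihood F test, Benjamini-Hochberg adjustment over all rows, threshold 0.05), with terms for the wash in sperm parts and for the acid or base label in tissue. DESeq2 1.42.0 and other scalings and filters were alternatives. On simulated counts the test was checked before use. Scipy 1.17.1 gave exact permutation tests.

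The set number pairs wash libraries by their titles, and enzyme-treated libraries carry the title of their untreated one. Over 30 pairs of the same wash set, the correlation of deviations had a median of 0.404, a lowest value of 0.0526 and, between sets, a median of -0.193.

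The 2 rows, the marker and pathway lists and the tests were chosen with earlier results of these data known. The named rows are both pi-Ankrd11 rows, the 5 most similar rows of any class and of piRNA, the other piRNA rows called higher in cauda heads, the 4 most abundant piRNA rows, the Ankrd11 row and the 4 most abundant of 24 pathway genes. pi-Shank3.2, Gm22710 and the microRNA sums were added after the values were seen. Substitution tables and 4-TU libraries were not used here. A sequence comparison at the locus is not reported here.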

Additional observations from a re-analysis of the deposited data

Results flagged for a closer look

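In groups of 4 to 10 libraries, the highest or lowest library was set against the rest, a test that chance alone trips in about 1 of 20 groups. It flagged 10 of 54 groups, each counted by either row and by their share, so some libraries recur. Testis base RppH replicate 1 stood apart in its group with 953 CPM of pi-Ankrd11.1, 876 CPM of pi-Ankrd11.2 and 1.39% of piRNA reads. Its epithelial microRNA sum of 7133 CPM, its mir-34 sum of 5824 CPM and its piRNA fraction of 13.1% are given above. Testis phosphatase-dead base replicate 1 stood apart with 246 CPM, 234 CPM and 0.11% of piRNA reads, in a library with 43.8% piRNA. Testis base untreated replicate 1 stood apart by small amounts, with 49.4 CPM of pi-Ankrd11.2 and a share of 0.0108%. In cauda sperm, set 3 after the mid wash had a share of 7.68%, and whole cauda sperm hypotonic replicate 2 had 2.51%.

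The effect of RppH differed between cauda epididymis and testis tissue by log2 -3.46 for pi-Ankrd11.1 and -3.35 for pi-Ankrd11.2 (adjusted p of 0.000406 and 0.000331 by edgeR, interaction term). Without testis base RppH replicate 1, an alternative added after the data were seen, the differences were -2.01 and -1.95 (adjusted p of 0.00528 and 0.00407). How many other rows were called in this term is not given, so the difference cannot be read as particular to the pi-Ankrd11 rows.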

How the results depend on the processing

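For pi-Ankrd11.1 the alternatives kept the direction and the side of the threshold in 108 of 139 cases, apart from leaving out libraries, while 14 turned the direction, 10 lost a call and 7 gained one. With libraries left out in turn it was 174 of 195, with 14 turned, 5 lost and 2 gained. These counts take the differences that chose the rows as kept where they moved by less than the spread. The causes of the changes below were not tested. The differences of cauda against testicular sperm and of epididymosomes against cauda sperm kept their calls under all alternatives run.

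With libraries scaled by their totals alone, the median of all rows moved, for example to -1.39 from -0.14 in cauda against caput sperm with kinase. On that scale pi-Ankrd11.1 (log2) stood at 1.56 after the mid wash, which passes, -0.10 in testicular heads against tails, 0.27 in cauda against caput sperm without kinase, -1.26 with kinase, 1.2 for kinase and -0.89 for AlkB in cauda epididymis, -0.013 for kinase and 1.43 for the phosphatase-dead kinase in testis, and 0.22 in cauda against testis tails. pi-Ankrd11.2 stood at -0.051 in testicular heads against tails, -0.67 for AlkB in cauda epididymis and 0.23 in cauda against testis tails. With the size factors of DESeq2 in edgeR the values were 2.06 for whole sperm, -0.67 for kinase in caput sperm, 0.91 for kinase and 0.39 (0.49 for pi-Ankrd11.2) for RppH in cauda epididymis, -0.10 for kinase in testis and -0.34 between untreated tissues. DESeq2 itself gave 2.05 for whole sperm, -0.75 for caput kinase, 0.38 and 0.47 for RppH in cauda epididymis and -0.10 for testis kinase. With no filter on low counts the values were 1.60 for whole sperm, 0.63 and 0.53 for cauda against caput sperm with kinase, 0.79 for kinase and 0.34 and 0.44 for RppH in cauda epididymis, and -0.058 for kinase in testis.

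With the replicate block the values were 0.98 and 0.58 for the mid and high wash, 0.079 for cauda against caput sperm with kinase, and 0.60 and -0.020 for kinase and AlkB in cauda epididymis. With each treated library blocked with its untreated namesake, an alternative added after the data were seen, kinase and AlkB in cauda epididymis stood at 0.58 and -0.043, and no other enzyme call of pi-Ankrd11.1 changed. The deviations of such namesakes had median correlations of 0.164 in sperm, 0.119 in cauda epididymis and 0.153 in testis, with lowest values of 0.0797, -0.108 and -0.124. Fusion and mock libraries share title suffixes, and the 12 and 9 week sperm share numbers in their titles. The block changed neither call of pi-Ankrd11.1. Cauda and caput sperm, the tissues, and testicular heads and tails share only a number or letter. The block moved the rows called in testicular heads against tails to 437 from 0 and after fusion to 936 from 406. In the washes it moved them to 294 from 9, 1757 from 352 and 1114 from 199.

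Expressed as CPM of all reads in place of the share of piRNA reads, the difference turned to -5.40 CPM in testicular heads against tails, -301.9 in cauda against caput sperm with kinase, -22.6 for AlkB in cauda epididymis, -26.6 between untreated tissues and -16.9 after fusion.

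With each library left out in turn, pi-Ankrd11.1 ranged over -0.28 to 0.55 in testicular heads against tails, 1.49 to 1.87 in whole sperm (passing without hypotonic replicate 3 or 4), -1.49 to -0.67 for kinase in caput sperm, 0.73 to 1.67 in cauda against caput sperm without kinase and -0.33 to 0.11 with it. It ranged over -0.10 to 0.42 for AlkB and -0.30 to 0.0077 for RppH in cauda epididymis, -0.047 to 0.20 for kinase and 1.31 to 1.96 for RppH in testis, -0.013 to 0.49 between ages, -0.82 to 0.18 after fusion and -0.86 to 0.31 in cauda against testis tails. pi-Ankrd11.2 ranged over -0.25 to 0.63 in testicular heads against tails, -0.21 to 0.21 for RppH in cauda epididymis, -0.78 to 0.27 after fusion and up to 0.33 in cauda against testis tails. The difference in the share of piRNA reads ranged over -0.0033 to 0.0066 percentage points in testicular heads against tails, -0.557 to 0.301 for caput kinase, -0.164 to 0.315 in cauda against caput sperm with kinase and -0.024 to 0.138 after fusion.

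With the title suffix as a term, rows called in epididymosomes against cauda sperm numbered 1441 in place of 2733.

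Rows called differed by over 1.5 times from the reported count under these settings. DESeq2 gave 52 in place of 9 (low wash), 739 for 352 (mid), 341 for 199 (high), 48 for 0 (testicular heads against tails), 52 for 3 (hypotonic against detergent), 493 for 764 (cauda against caput sperm without kinase), 191 for 123 (testis AlkB), 536 for 206 (testis RppH) and 212 for 406 (fusion). Library totals gave 80, 1100 and 338 in the washes, 11 (hypotonic against detergent), 881 for 564 (cauda against caput sperm with kinase), 572 for 366 (AlkB in cauda epididymis), 30 for 123 (testis kinase), 349 (testis RppH) and 2472 for 3897 (cauda against testis tails). No filter gave 7, 25, 486, 244 and 193 for testicular heads against tails, hypotonic against detergent, cauda against caput sperm without kinase, testis kinase and testis AlkB. The size factors of DESeq2 gave 7 for hypotonic against detergent and 53 for testis kinase. Leaving out 1 library moved the rows called by over 1.5 times in 19 of 195 cases. The counts ran from 105 to 485 for testis RppH (485 without base RppH replicate 1), 46 to 101 for testis kinase, 203 to 598 for fusion (203 without fusion replicate 1), 2886 to 4485 in whole sperm (2886 without testicular replicate 3), 2446 to 3950 in cauda against testis tails, 231 to 528 after the mid and 119 to 189 after the high wash (lowest without unwashed set 4), 1 to 5 for hypotonic against detergent and 0 to 4 in testicular heads against tails.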
